A study of Mus musculus with 30 samples.

Results

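The nuclear genes for subunits of respiratory complexes II, III, IV and V were followed in 30 libraries of polyribosome-bound RNA from the nucleus accumbens of female mice. Members were the protein-coding genes of the GENCODE M21 annotation whose symbols were Sdha to Sdhd (complex II) or began with Uqcr (complex III), Cox4 to Cox8 (complex IV) or Atp5 (complex V). They came to 48 of the 55335 genes in the count table, under 47 symbols, because 2 gene identifiers carry the symbol Atp5o. Complex II had 4 members, complex III 8, complex IV 18 and complex V 18. A filter on low counts kept 45 of the 48 for testing, with 4 of 4, 8 of 8, 16 of 18 and 17 of 18 in the order of the complexes. Set aside were Cox8b, with 18 counts over all libraries and 0 in 24 of them, Cox8c, with 5 counts in the library of D1 Resilient replicate 1 and 0 in the other 29, and the Atp5o gene ENSMUSG00000116933, at 0 in all 30. Levels are given as CPM, counts scaled to a common library total, and a count of 0 still allows 3 counts, a level between 0.043 and 0.304 CPM by library. The symbol rule leaves out Cyc1 of complex III, Ndufa4 and the mitochondrially encoded subunits. It takes in Atp5s, a coupling factor, and Cox7a2l, a supercomplex factor, which are not structural subunits in the strict sense.

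Mitochondria make most of a neuron's ATP by oxidative phosphorylation. Complex II, succinate dehydrogenase, is also an enzyme of the citrate cycle and passes electrons to ubiquinone. Complex III passes them from ubiquinol to cytochrome c, complex IV hands them to oxygen, and complex V, the ATP synthase, uses the proton gradient that complexes I, III and IV build. Several subunits of complex IV exist as paired isoforms, of which one is widely expressed and the other is known from heart, muscle, lung or testis. Medium spiny neurons, the main neurons of the nucleus accumbens, fall into a class with the dopamine receptor D1 and a class with the receptor D2.

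All libraries came from RiboTag (RT) females, in which Cre recombinase switches on an HA-tagged ribosomal protein. In the D1-Cre-RT line the D1 receptor promoter drives Cre, and those libraries are called D1. In the A2A-Cre-RT line the adenosine A2A receptor promoter drives it, and those libraries are called D2, so that neuron class and mouse line cannot be told apart. Mice of each line were either Control or went through chronic witness defeat stress, and stressed mice were named Resilient or Susceptible from their social interaction scores. Each of the 6 groups (D1 Control, D1 Resilient, D1 Susceptible, D2 Control, D2 Resilient and D2 Susceptible) had 5 libraries. Each library pooled 4 mice with similar interaction ratios, collected 24 hours after the interaction test. Age was not given in the sources used here.

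Counts assigned to genes ran from 28996168 to 65882152 per library. D2 Susceptible replicates 1 and 2 stood apart, with 15822 and 16525 genes detected against 19440 to 22375 in the other 28. The main counts of members that rest on these libraries are given with and without them. In D1 Susceptible replicate 1, 54.9% of gene counts fell on Gm42418, and its counts for other genes were scaled up accordingly. Summed CPM of 5 D1 neuron markers was 1554 to 2351 in D1 libraries and 242.3 to 1673 in D2 libraries. Summed CPM of 5 D2 neuron markers was 1120 to 2771 in D1 libraries and 4867 to 12799 in D2 libraries. The D2 neuron sums of the lines did not overlap, while the D1 neuron sums did: D2 Resilient replicate 5 was at 1673, inside the D1 range, where the other 14 D2 libraries were at 242.3 to 1107. That library also had the lowest D2 neuron sum of its line, 4867, and neither kind of library was free of the other class's transcripts. In this pulled-down RNA, fewer tagged cells of a type and less RNA per cell cannot be told apart.

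Levels compared between genes are in CPM per kilobase of each gene's main transcript, as the mean over all 30 libraries ± SD. In complex II, Sdha, the flavoprotein that oxidises succinate, led with 206.8 ± 20.98. Sdhb, the iron-sulphur subunit, followed at 132.1 ± 17.68. The membrane anchors were lower, Sdhd at 76.46 ± 6.803 and Sdhc at 38.91 ± 6.049. Neighbours in this order differed by more than the SD of either gene, but the order depends on the length used: per kilobase of all annotated exons Sdhb, at 67.39, lay below Sdhd, at 76.46.

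In complex III, the hinge protein Uqcrh was highest at 344.1 ± 97.5 CPM per kilobase of main transcript, while per kilobase of all annotated exons it was at 152.2, below Uqcr10 at 188.3. The small subunits Uqcr10 (253.4), Uqcrb (185.5) and Uqcr11 (179), the core protein Uqcrc2 (169.7) and the Rieske iron-sulphur protein Uqcrfs1 (119.4) came next, and Uqcrq was at 91.23. Uqcrc1, the partner of Uqcrc2 in the complex's core, was at 3.787 ± 1.084. Its range of 1.81 to 10.1 CPM over the libraries did not reach the lowest Uqcrc2 value of 202 CPM. None of the 50-base stretches of Uqcrc1 exons occurs in another gene of the annotation, and the reason for its low count was not tested.

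Complex IV had the highest level of all members, 910.9 ± 132 CPM per kilobase for Cox4i1, the common isoform of subunit 4. Cox6c (376.8), Cox5a (374.4), Cox8a (357.2), Cox6b1 (348.6), Cox6a1 (300.3) and Cox5b (296.3) came next, of which Cox6c and Cox5a were at 77.95 and 115 per kilobase of all annotated exons. Cox7a2 (214.1), Cox7c (190.4), Cox7b (132.1) and the supercomplex factor Cox7a2l (110.9) followed. The alternative isoforms were far below their partners: Cox6a2 was at 2.031, Cox7a1 at 1.516, Cox4i2 at 1.481, Cox6b2 at 0.7063 and Cox7b2 at 0.3044 ± 0.3491. Each of these alternative isoforms was at 0 in at least 1 library, and Cox8b and Cox8c were the members set aside.

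In complex V, Atp5b, the catalytic beta subunit, was at 745.7 ± 144.6 CPM per kilobase, and Atp5g3, one of the genes for the rotating c ring, at 704.7. The other c-ring genes were lower, Atp5g2 at 122.2 and Atp5g1 at 23.86. Peripheral stalk genes spanned Atp5h (524.1), Atp5f1 (248.2), Atp5j (246.6) and Atp5o (36.43). Of the rotor's central stalk, Atp5c1 was at 223.1, Atp5e at 166.5 and Atp5d at 135.5. Small membrane subunits that help synthases pair into dimers were at 289 (Atp5l, or 24.4 per kilobase of all annotated exons), 213.4 (Atp5k) and 210.2 (Atp5j2), and Atp5mpl was at 122.1. Atp5a1, the alpha subunit that forms the catalytic head with Atp5b, was at 10.86, and Atp5s at 5.179 ± 1.097. Some of these reads are shared with other genes: 38.3% of the 50-base stretches of Atp5g2, 41.6% of Atp5o, 25.5% of Uqcrb, 22.1% of Cox7c and 19.9% of Atp5h also occur elsewhere, and 47.9% of Atp5o's exon bases lie in another gene, so these levels are uncertain.

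**Figure D1:**
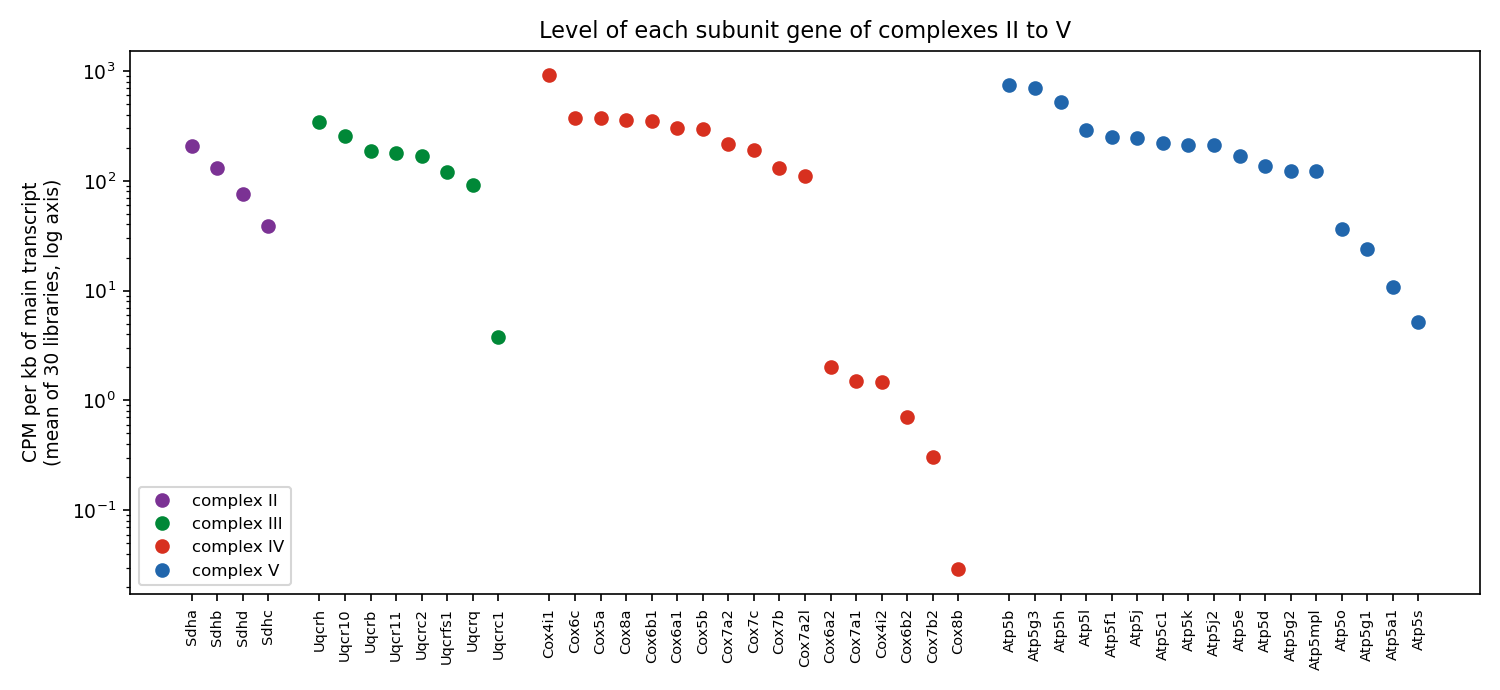
Levels of the members by complex, in CPM per kilobase of the main transcript on a log axis, where each point is the mean of 30 libraries. Cox8c and the Atp5o gene at 0 are not drawn. Cox4i1, Atp5b and Atp5g3 are highest, and Uqcrc1 (3.787) and the alternative isoforms of complex IV lie far below the rest of their complexes.

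Summed over a complex, CPM is a description that its most abundant members dominate. Complex II was at 978.6 ± 18.72 (SD, n = 5) in D1 Control and 978.3 ± 45.7 in D2 Control, with overlapping ranges. Complex III was at 1057 ± 16.66 and 1185 ± 82.24, with 1037 to 1074 in D1 Control below 1119 to 1322 in D2 Control. Complex IV was at 2298 ± 92.62 and 2900 ± 343.6, where 2179 to 2393 lay below 2672 to 3507. Complex V was at 4166 ± 96.68 and 4439 ± 142.8, and its ranges of 4013 to 4274 and 4205 to 4566 met. In Resilient mice the sums of the lines overlapped in each complex, with complex IV at 2528 ± 293.4 in D1 and 2475 ± 109.3 in D2. In D2 Susceptible complex II was at 897.7 ± 98, with 769.2 and 816.7 in replicates 1 and 2 and 946.7 to 983.1 in the other 3, whose mean of 967.6 lay inside the D1 Susceptible mean and SD of 951.4 ± 55.63.

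The comparison of D1 with D2 libraries asks how the members differ between the neuron classes, in Control mice without stress. In Control, 18 of the 45 members tested were lower in D1 and 0 were higher at an adjusted p under 0.05 (edgeR quasi-likelihood test, Benjamini-Hochberg over 19368 genes), where 4.8% of all genes tested were lower and 3.51% higher in D1. By complex the lower members were 1 of 4 in complex II, 2 of 8 in complex III, 6 of 16 in complex IV and 9 of 17 in complex V. The median log2 difference, D1 minus D2, was -0.05, -0.27, -0.38 and -0.27 in that order, and -0.00 over all genes. Over all 3 conditions, 23 members were lower in D1 and 2 higher, where 15.5% of all genes were lower and 13.8% higher. Of the 45 differences, 34 were negative, with a median of -0.20 against 0.01 over all genes. By complex the lower members were 1, 5, 9 and 8, and the 2 higher were Uqcrc2 and Cox6a2. The Control comparison is part of that over all 3 conditions, so the counts share libraries.

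Of the 18 lower members in Control, 9 belonged to complex V. Atp5k, subunit e of the membrane part (ENSMUSG00000050856, chromosome 5, 108433244 to 108434448, GRCm38), read 54.6, 44.9, 52.9, 47.3 and 60.4 CPM in the 5 D1 Control libraries and 69.6, 100, 101, 94.9 and 95.6 in D2 Control. All D1 Control libraries lay below all D2 Control libraries. In Control its log2 difference, D1 minus D2, was -0.83 (SE 0.164, adjusted p = 0.00108), and over all 3 conditions -0.56 (SE 0.0946, adjusted p = 2.87e-05). The catalytic Atp5b did not pass the test, at 1483 to 1653 CPM in D1 Control and 1644, 1528, 1540, 924 and 1316 in D2 Control, with a log2 difference of 0.23 (adjusted p = 0.109) over all 3 conditions. As a share of Atp5b, Atp5k was 2.72 to 3.94% in D1 Control and 4.23 to 10.3% in D2 Control, ranges that do not overlap.

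A further 8 members of complex V were lower in D1 Control as well. Atp5e, the epsilon subunit of the central stalk, was at 52.2 to 58.3 CPM in D1 Control and 73.1 to 103 in D2 Control, with a log2 difference of -0.63 (SE 0.133, adjusted p = 0.002). The membrane subunits Atp5j2 (-0.49) and Atp5l (-0.48) and the small Atp5mpl (-0.45) were also lower in D1 Control, each with no overlap between groups. Of the c-ring genes Atp5g2 differed by -0.45 (adjusted p = 0.002) and Atp5g3 by -0.27 (adjusted p = 0.0485), while Atp5g1, at 102 to 126 CPM in D1 Control and 113 to 136 in D2 Control, did not pass the test. Atp5o (-0.60) and Atp5d (-0.32) completed the 9. Of the 17 members tested, Atp5a1, Atp5b, Atp5c1, Atp5f1, Atp5g1, Atp5h, Atp5j and Atp5s did not pass.

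The promoters of Atp5k and Atp5l of complex V, Uqcr11 of complex III and Atp5b are given to show the core of the NRF-1 site, known from many respiratory genes. The first 3 were chosen because they hold the core and Atp5b because it does not, so no contrast follows from them. The sequences are from RefSeq on GRCm38.p6 and run from 250 bases before to 50 bases after the start, on the gene's strand, with motif letters in capitals. Promoters were matched for 34 of the 47 symbols. The NRF-1 core GCGCATGC, searched on both strands, occurs in 7 of the 34 (20.6%) and in 824 of 27025 genes (3.05%). The 7 are Atp5g2, Atp5k, Atp5l, Cox6a1, Sdhb, Uqcr11 and Uqcrc1, of which Sdhb and Uqcrc1 did not pass the test in Control. Atp5d and Atp5e, which were lower in D1 Control, do not hold it in this window. The ETS core CCGGAAGT, a part of the site for GABP, occurs in 4 of the 34 (11.8%) against 4.31% of genes, and the YY1 core AAGATGGC in 2 (5.88%) against 3.19%. Such a match describes letters and is no measure of binding. The promoters are on chr5:108434350-108434649 (minus strand) for Atp5k, chr9:44920693-44920992 (minus strand) for Atp5l, chr10:80406772-80407071 (minus strand) for Uqcr11 and chr10:128083057-128083356 (plus strand) for Atp5b, which holds none of the 3 motifs.
Atp5k: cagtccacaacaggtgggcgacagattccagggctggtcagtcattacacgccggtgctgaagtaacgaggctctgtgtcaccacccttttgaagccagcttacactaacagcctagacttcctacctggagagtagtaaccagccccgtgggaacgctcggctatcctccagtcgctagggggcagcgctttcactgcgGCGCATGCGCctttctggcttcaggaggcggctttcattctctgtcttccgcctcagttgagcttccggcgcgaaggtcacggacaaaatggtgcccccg
Atp5l: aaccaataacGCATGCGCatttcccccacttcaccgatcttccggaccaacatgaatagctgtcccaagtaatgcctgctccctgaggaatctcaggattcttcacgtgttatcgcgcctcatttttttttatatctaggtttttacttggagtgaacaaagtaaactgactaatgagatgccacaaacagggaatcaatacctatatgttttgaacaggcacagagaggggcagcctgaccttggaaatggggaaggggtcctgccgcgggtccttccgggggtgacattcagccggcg
Uqcr11: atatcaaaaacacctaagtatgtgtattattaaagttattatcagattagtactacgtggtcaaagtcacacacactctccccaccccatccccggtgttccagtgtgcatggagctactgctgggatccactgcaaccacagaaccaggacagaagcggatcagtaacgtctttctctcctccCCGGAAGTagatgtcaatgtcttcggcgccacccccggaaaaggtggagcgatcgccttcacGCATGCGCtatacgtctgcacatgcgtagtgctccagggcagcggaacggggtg
Atp5b: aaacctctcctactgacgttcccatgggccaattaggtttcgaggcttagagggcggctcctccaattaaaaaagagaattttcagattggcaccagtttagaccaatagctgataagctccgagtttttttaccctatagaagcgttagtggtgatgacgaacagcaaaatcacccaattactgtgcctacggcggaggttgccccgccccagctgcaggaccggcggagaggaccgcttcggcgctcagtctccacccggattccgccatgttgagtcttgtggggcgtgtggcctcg

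In complex IV, Cox5b, a zinc-binding subunit on the matrix side (chromosome 1, 36691449 to 36693681), read 225, 228, 194, 203 and 226 CPM in D1 Control and 286, 295, 299, 337 and 269 in D2 Control. The groups did not overlap, and the log2 difference was -0.47 (SE 0.0876, adjusted p = 0.000591). Cox7c, a small membrane subunit, was at 73.3 to 86.3 CPM against 104 to 137 and differed by -0.60 (adjusted p = 0.00542). Cox6b1 (-0.36), Cox6a1 (-0.40) and Cox6c (-0.41), further small accessory subunits, were lower as well. Over all 3 conditions Cox4i1, Cox5a and Cox7a2l joined them, with log2 differences of -0.17, -0.30 and -0.25. In D2 Susceptible replicates 1 and 2, Cox5a read 423 and 434.6 CPM, above all other libraries, and Cox7a2l 150.5 and 210.5. The differences of these members without those libraries are not given. Cox7a2 (-0.09), Cox7b (-0.10) and Cox8a (-0.13) did not pass the test over all 3 conditions.

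In complex III, the small subunit Uqcr11 read 81.8, 74.1, 54.1, 55.2 and 57.5 CPM in D1 Control and 93, 89.2, 91, 120 and 83.2 in D2 Control. The groups did not overlap, and the log2 difference was -0.56 (SE 0.14, adjusted p = 0.0094). Uqcr10, another small subunit, differed by -0.55 (adjusted p = 0.0179). Over all 3 conditions Uqcrh (-0.34), Uqcrq (-0.34) and Uqcrb (-0.20) were lower in D1 too. In D2 Susceptible replicates 1 and 2, Uqcrh read 359.1 and 346.3 CPM and Uqcrq 218.4 and 254.7. The highest values in the other 28 libraries were 275.4 for Uqcrh and 221.8 for Uqcrq. The core protein Uqcrc2 was higher in D1, by 0.17 (SE 0.0637, adjusted p = 0.04), and the Rieske protein Uqcrfs1 differed by 0.01 and did not pass. Of Uqcrc2's exon bases 19.7% lie in the gene Pdzd9, which also holds 17.6% of its 50-base stretches.

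In complex II, the anchor Sdhc read 112, 110, 104, 103 and 105 CPM in D1 Control and 132, 133, 142, 155 and 127 in D2 Control. Its groups did not overlap, and it was lower in D1 by a log2 difference of -0.37 (SE 0.0908, adjusted p = 0.00899) in Control and -0.25 (SE 0.0524, adjusted p = 0.000383) over all 3 conditions. The other 3 subunits did not pass over all 3 conditions: Sdha differed by 0.11 (adjusted p = 0.0989), Sdhb by 0.10 (adjusted p = 0.269) and Sdhd by -0.11 (adjusted p = 0.0625). Sdhc lies on chromosome 1 at 171127165 to 171150603 (GRCm38).

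**Figure D2:**
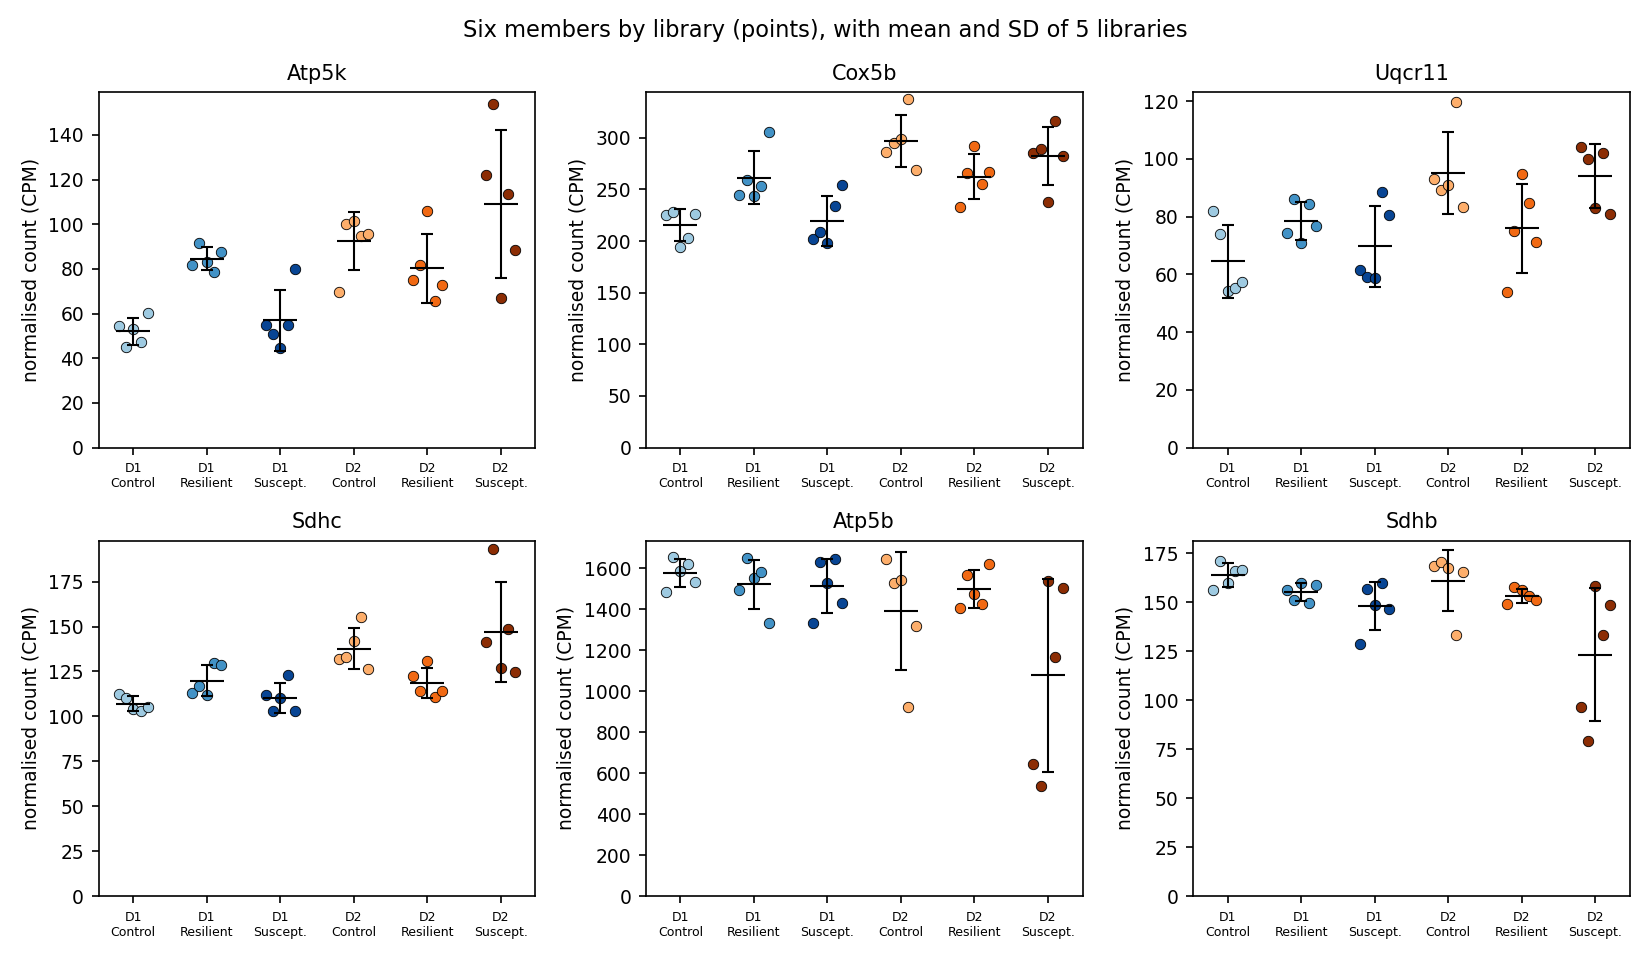
CPM of Atp5k, Cox5b, Uqcr11, Sdhc, Atp5b and Sdhb in each library by group, with points for libraries and the mean and SD of 5. Atp5k is 44.9 to 60.4 in D1 Control and 69.6 to 101 in D2 Control, and 2 D2 Susceptible libraries lie low in Atp5b (642 and 536) and Sdhb (96.6 and 79.4).

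Differences between the classes went with transcript length in Control and Susceptible mice. Main transcripts of the 40 members with at least 50 counts in every library were 371 to 4715 bases long (median 823), shorter than the median of 2622 over the genes tested. Across these 40 members, which share the same libraries, the Spearman correlation of the log2 difference with transcript length was 0.66 in Control, 0.681 in Susceptible and 0.729 over all 3 conditions, so that short members were the ones lower in D1. In Resilient it was 0.0903. Over all genes tested, the slope of a library's log2 deviation on log2 length was -0.026 to 0.012 in D1 Control and -0.078 to -0.014 in D2 Control, so that the D2 Control libraries leaned to short transcripts. In Resilient mice the slopes were -0.078 to -0.004 for D1 and -0.033 to 0.021 for D2. In D1 Susceptible libraries they were -0.022 to 0.180, with 0.180 in replicate 1. In D2 Susceptible they were 0.137 and 0.106 in replicates 1 and 2 and -0.053 to -0.006 in the others. Over all genes those 2 libraries leaned to long transcripts by this slope, which weighs every gene tested alike, low counts included. Among the members, the short Atp5k and Atp5l were above the other 28 libraries there, and the longer Sdha and Atp5b below. Across the 40 members the correlation with length was -0.509 in D2 Susceptible against Control and -0.627 in D2 Susceptible against Resilient. With a length term for each library, 1 member was called in Control in place of 18, where 2.57% of all genes were lower and 2.51% higher. The median over members was then -0.21, against 0.03 over all genes. The term also took in each library's mean deviation over all genes, so it moved general levels beside any length trend. With that term 24 members were lower and 3 higher in Susceptible, in place of 17 and 2. The median over members was then -0.47, against -0.18 over all genes. Of all genes, 20.6% were lower and 7.12% higher with that term. With the conditions joined 16 were lower and 2 higher, where 14.5% and 11.2% of all genes were. Leaving out D2 Control replicate 4, D1 Control replicate 3 or D1 Control replicate 4 left 8, 9 or 10 called, where 5.34%, 4.95% or 5.63% of all genes were. The part of transcript length in these differences was not tested beyond that term.

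**Figure D3:**
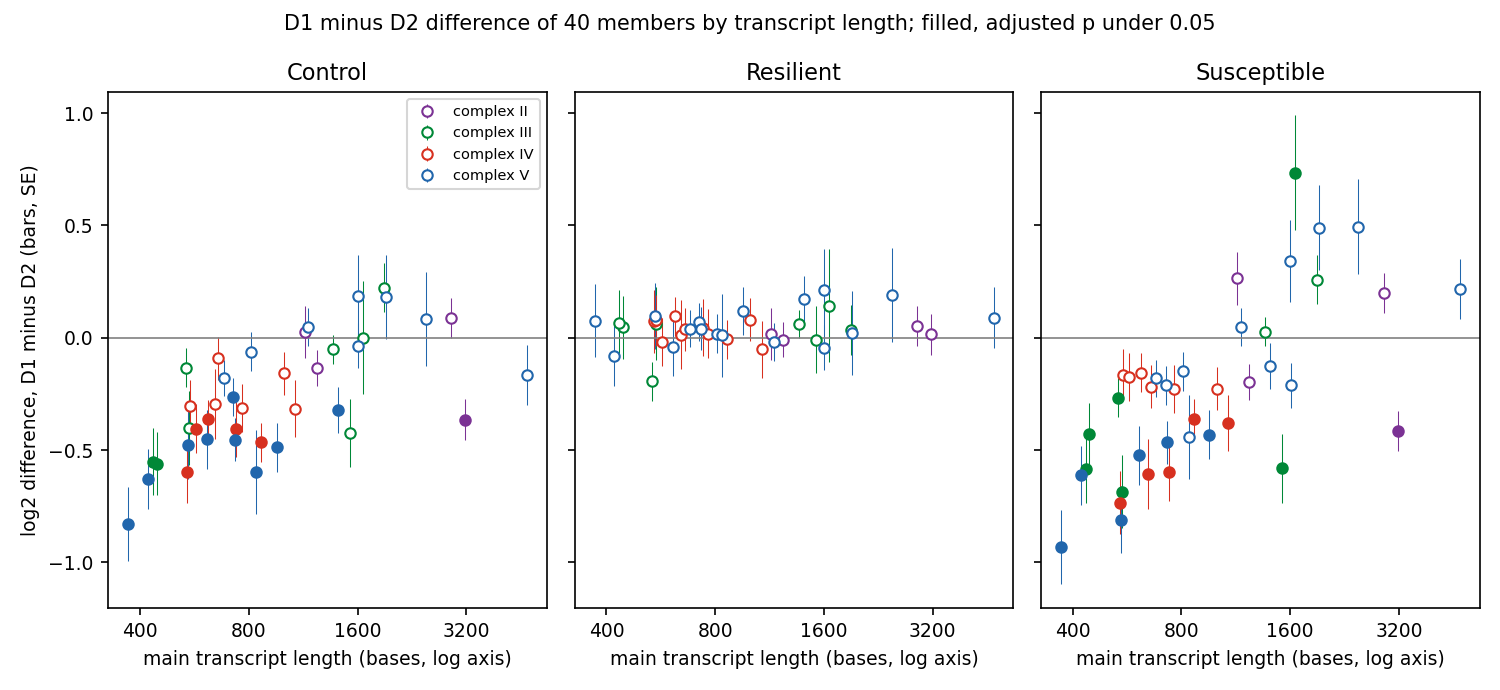
Log2 difference, D1 minus D2, with its SE against main transcript length on a log axis for 40 members, in Control, Resilient and Susceptible mice. Filled points passed an adjusted p of 0.05, and the shorter members lie lower in Control and in Susceptible (correlations of 0.66 and 0.681) and not in Resilient (0.0903).

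Cell type markers also differed between the lines, where 15.5% of all genes were lower in D1 and 13.8% higher over all 3 conditions. Over all 3 conditions 6 of 6 endothelial, 6 of 6 mural, 6 of 6 astrocyte, 6 of 6 oligodendrocyte and 4 of 6 microglia markers were lower in D1, and 5 of 6 interneuron markers were higher. Summed endothelial CPM was 14.85 to 40.57 in D1 and 68.46 to 350.3 in D2 libraries, and summed astrocyte CPM 38.22 to 158.2 and 66.25 to 208.2. Oligodendrocyte markers summed to 382.6 to 998.5 in D1 and 433 to 1894 in D2 libraries, and microglia markers to 8.184 to 40.09 and 13.02 to 45.45. Their part in the members' differences was not tested.

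The 2 largest differences between the classes were in alternative isoforms of complex IV. Cox4i2, the isoform of subunit 4 known from lung and from mural cells of vessels (chromosome 2, 152754173 to 152765037), read 0.346, 0.17, 0.264, 0.185 and 0 CPM in D1 Control and 2.47, 2.46, 1.13, 2.91 and 2.71 in D2 Control. The D1 Resilient libraries read 0, 0.058, 0, 0.127 and 0.277 and the D2 Resilient libraries 2.1, 2.89, 1.93, 1.41 and 0.784. In Control and in Resilient every D1 library was below every D2 library. The log2 difference was -3.56 (SE 0.966, adjusted p = 0.0173) in Control, -4.25 (SE 1.02, adjusted p = 0.00661) in Resilient and -3.22 (SE 0.556, adjusted p = 4.12e-05) over all 3 conditions. In Susceptible it was -1.84 (adjusted p = 0.141), with 0.507, 0.285, 0, 0.268 and 1.21 CPM in D1 and 0, 1.27, 2.05, 2.69 and 2.06 in D2. Summed mural CPM was 8.002 to 35.41 in D1 and 92.11 to 261 in D2 libraries. The mural marker Higd1b was at 0 to 0.6088 CPM in D1 libraries. The part of mural RNA in the Cox4i2 difference was not tested.

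Cox6a2, the isoform of subunit 6a known from heart, muscle and parvalbumin interneurons (chromosome 7, 128205435 to 128206387), was higher in D1. It read 2.98, 2.06, 1.77, 1.7 and 1.87 CPM in D1 Control and 0.174, 0.127, 1, 0.329 and 1.42 in D2 Control. It read 2.16, 2.88, 2.65, 3.65 and 3.21 in D1 Resilient and 1.49, 0.448, 0.199, 1 and 2.17 in D2 Resilient. In Susceptible, D1 libraries were at 1.22, 1.69, 1.81, 1.77 and 1.21, and D2 libraries at 0, 0, 0, 0.184 and 0.279. Every D1 library lay above every D2 library in Control and in Susceptible, while the Resilient groups met at their ends. Cox6a2 did not pass the test in Control or in Resilient, where 0 members were higher in D1. The test put it higher in D1 by a log2 difference of 2.39 (SE 0.421, adjusted p = 5.08e-05) over all 3 conditions and 3.96 (SE 0.798, adjusted p = 0.000711) in Susceptible. The interneuron markers summed to 296.3 to 478 CPM in D1 and 69.85 to 276.2 in D2 libraries, and Pvalb was at 9.537 to 30.25 against 0.8422 to 11.99. The part of interneuron RNA was not tested.

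**Figure D4:**
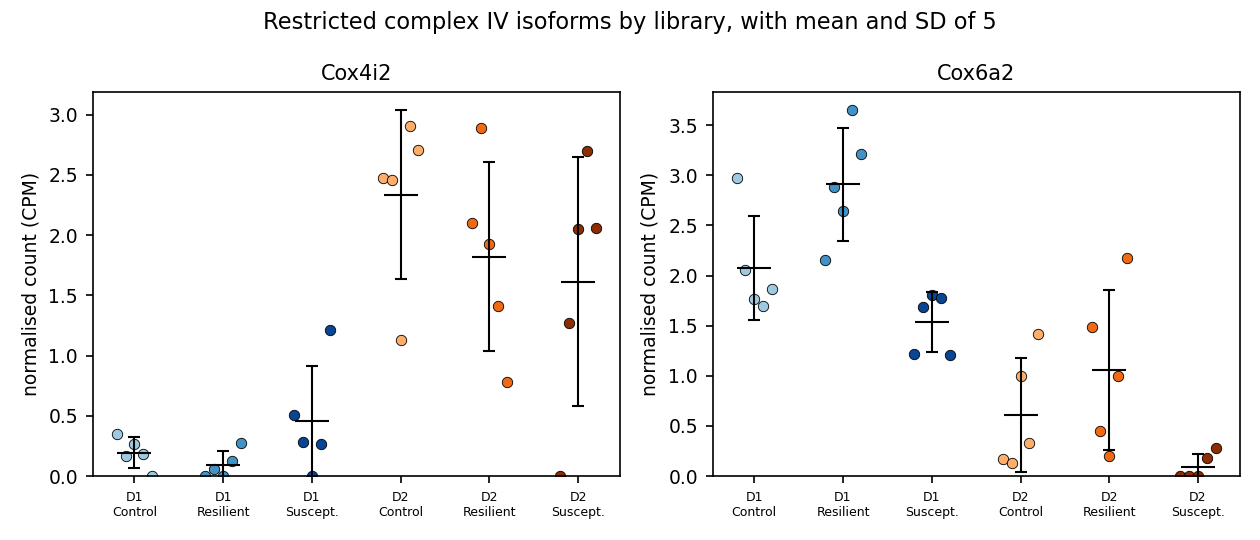
CPM of the complex IV isoforms Cox4i2 and Cox6a2 in each library by group, with the mean and SD of 5. Cox4i2 is at or below 1.21 in all D1 libraries, and Cox6a2 is at or below 0.279 in D2 Susceptible.

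In Resilient mice few members differed between the classes. In these libraries 1 of 45 members, Cox4i2, was lower in D1 and 0 were higher, where 3.9% of all genes were lower and 2.75% higher. The median over members was 0.04, and -0.00 over all genes. Without D2 Resilient replicate 5, the library whose D1 neuron markers reached the D1 range, 1 member was called in Resilient as well, with a median of 0.05, where 4.09% of all genes were lower and 3.25% higher. Across the 3 conditions 20 members were then lower in D1 and 3 higher, where 14.2% and 15.2% of all genes were.

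In Susceptible mice 17 members were lower in D1 and 2 higher (Cox6a2 and Uqcrc1), where 13.4% and 10.5% of all genes were. By complex the lower members were 1, 5, 5 and 6. Atp5k (-0.93, adjusted p = 0.000169), Atp5l (-0.81) and Cox7c (-0.74) were the furthest below among those called. Without D2 Susceptible replicates 1 and 2 the lower members were 6 and the higher 1: Sdhc (-0.25), Cox5b (-0.32), Cox7c (-0.37), Atp5k (-0.63), Atp5l (-0.32) and Atp5g2 (-0.40) were lower and Cox6a2 (3.31) higher, where 4.89% of all genes were lower and 5.51% higher. Fitting only the 2 groups compared left 2 called (5.48% of all genes), and leaving out D2 Susceptible replicate 3 gave 29 (31.4%). Over all 3 conditions the same omission of replicates 1 and 2 left 17 lower and 1 higher, where 13.8% and 16.2% of all genes were, and Uqcrc2 was no longer among them.

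The stress comparisons ask whether the members differed between Control, Resilient and Susceptible mice of a line, and comparisons within a line share libraries. After adjustment 0 of 45 members passed in D1 Susceptible against Control, where 0% of all genes passed, in D1 Resilient against Control (0%) or in D1 Susceptible against Resilient (0%). In the D2 line 0 members passed in Susceptible against Control, where 0.00516% of all genes did, in Resilient against Control (0%) or in Susceptible against Resilient (0.0516%). For the differences of change between the lines, 0 members passed in any of the 3 (0% of all genes in each). Counts at an unadjusted p under 0.05 are therefore given beside the share of all genes, as a description.

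The comparison of Resilient with Control mice had members mostly higher in the D1 line and mostly lower in the D2 line, none of them called. In D1 Resilient against Control, 6 members had an unadjusted p under 0.05, all higher in Resilient, or 13.3% of 45, where 2.6% of all genes tested did. They were Cox5b and Cox7c of complex IV and Atp5k, Atp5g2, Atp5j2 and Atp5o of complex V, and complexes II and III had none. The log2 difference was positive for 34 of 45 members, with a median of 0.11 against -0.01 over all genes. Atp5k read 81.8, 91.6, 83.3, 78.5 and 87.7 CPM in D1 Resilient, above every D1 Control library. Its log2 difference was 0.70 (SE 0.164, adjusted p = 0.863). Cox5b read 244, 259, 244, 254 and 306 in D1 Resilient, also above every D1 Control library, with a log2 difference of 0.28 (SE 0.0875, adjusted p = 1). Fitting only the groups compared called Atp5k (adjusted p = 0.00127), where 0.0764% of all genes were called. Limma's voom with quality weights called 7 members, or 15.6%, among them Atp5k (adjusted p = 0.00136) and Cox5b (adjusted p = 0.0177), where 0.893% of all genes were called, and DESeq2 called 0 members. Without D2 Susceptible replicates 1 and 2, whose group is not in the contrast, 13 members were at an unadjusted p under 0.05, or 28.9%, where 4.74% of all genes were. In the same comparison 5 of 6 oligodendrocyte, 4 of 6 astrocyte and 3 of 6 mural markers were lower in Resilient at an unadjusted p under 0.05, none after adjustment, with summed astrocyte CPM 38.22 to 54.03 in Resilient and 42.92 to 158.2 in Control. Their part was not tested.

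In D2 Resilient against Control, 15 members had an unadjusted p under 0.05, all lower in Resilient, or 33.3% of 45, where 4.2% of all genes did. They were 1 of 4, 3 of 8, 5 of 16 and 6 of 17 in complexes II to V, and the log2 difference was negative for 39 of 45, with a median of -0.20 against -0.01 over all genes. Atp5d, the delta subunit of the central stalk, read 128, 183, 186, 183 and 184 CPM in D2 Resilient and 227, 206, 216, 247 and 222 in D2 Control. The groups did not overlap, and the log2 difference was -0.37 (SE 0.101, adjusted p = 1). Cox6b1 was next, at -0.28 (adjusted p = 1). The voom fit and DESeq2 called 0 members. Without D2 Susceptible replicates 1 and 2 there were 22 at an unadjusted p under 0.05, or 48.9%, where 8.82% of all genes were.

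The difference between the 2 responses, D1 change minus D2 change, rearranges the Control and Resilient comparisons of D1 with D2 given above. It uses the same libraries and is no separate result. In it 19 members had an unadjusted p under 0.05, all positive, or 42.2% of 45, where 4.99% of all genes did. By complex they were 1, 2, 7 and 9, with medians of 0.06, 0.28, 0.36 and 0.34. Atp5j2 (0.61), Atp5k (0.90, adjusted p = 0.621), Cox6b1 (0.46) and Cox5b (0.46) had the smallest p-values. Fitting only the groups compared called 3 members, where 0.0644% of all genes were called, voom 9, where 0.873% were, and DESeq2 0. Without D2 Susceptible replicates 1 and 2, whose groups are not in the contrast, 24 members were at an unadjusted p under 0.05, or 53.3%, where 9.27% of all genes were, and the smallest adjusted p was 0.0745. Transcript length went with these differences too. Across the 40 members the Spearman correlation of the log2 difference with length was -0.541 in D1 Resilient against Control, 0.417 in D2 Resilient against Control and -0.605 for the difference of change. The part of length was not tested beyond the length term, with which 0 members were called in each of the 3.

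**Figure D5:**
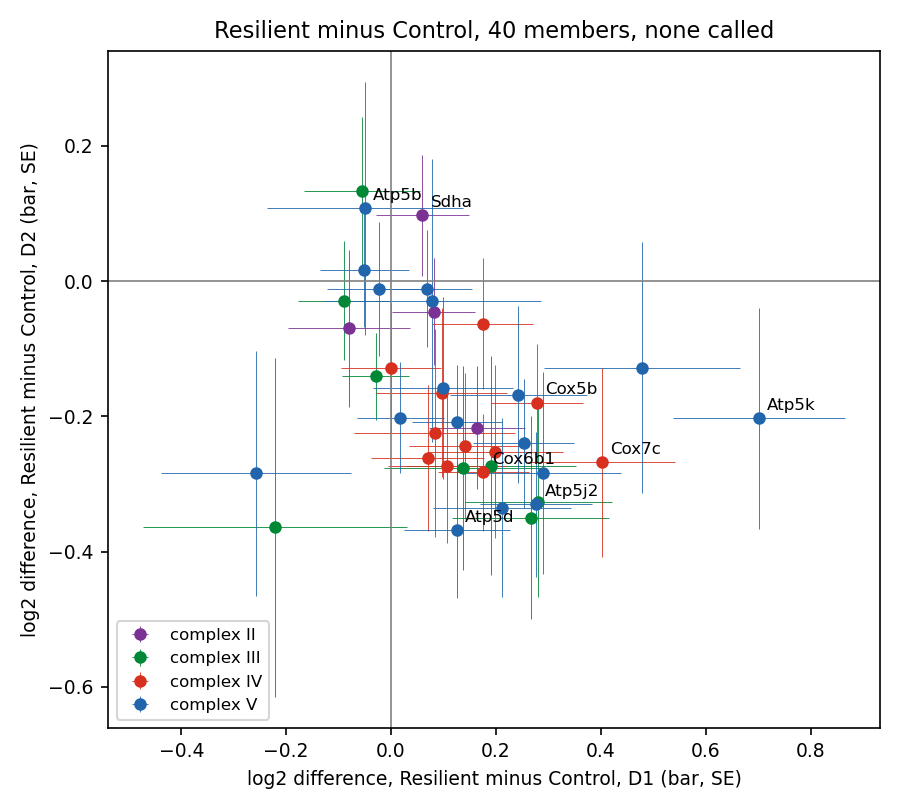
Log2 difference Resilient minus Control in the D1 line (horizontal) and D2 line (vertical) for 40 members, with SE bars. Most members lie to the right of 0 and below 0, and no member passed an adjusted p of 0.05 in either line.

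In D1 Susceptible against Control, 0 members had an unadjusted p under 0.05, where 2.4% of all genes did, and the median over members was -0.01, as over all genes. voom and DESeq2 called 0. The smallest p-values were those of Uqcrfs1 (log2 difference -0.12, SE 0.0638, adjusted p = 1) and Atp5f1 (-0.16, SE 0.0993, adjusted p = 1). In D1 Susceptible against Resilient, 12 members were at an unadjusted p under 0.05, 11 lower and 1 higher in Susceptible (Cox4i2), or 26.7% of 45, where 3.49% of all genes did. Atp5k had the smallest p, with 54.9, 51, 44.4, 54.7 and 80 CPM in D1 Susceptible and a log2 difference of -0.57 (SE 0.164, adjusted p = 0.689). Its D1 Susceptible library at 80 met the Resilient range. Cox7b, at 91.62 to 127.7 CPM in Susceptible and 127.9 to 169 in Resilient, differed by -0.29 (adjusted p = 0.856) with no overlap. In this comparison voom called 2 members, where 0.0774% of all genes were called, and DESeq2 0. Beside it, 5 of 6 endothelial and 5 of 6 mural markers were higher in Susceptible at an unadjusted p under 0.05, with mural sums of 9.232 to 35.41 against 8.002 to 11.99 CPM, and their part was not tested.

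In D2 Susceptible against Control, 7 members were at an unadjusted p under 0.05, all lower, or 15.6% of 45, where 15.7% of all genes did, so the count is close to the background. Sdhb, the iron-sulphur subunit of complex II, read 96.6, 79.4, 158, 134 and 149 CPM in D2 Susceptible and 168, 171, 168, 133 and 165 in D2 Control, with a log2 difference of -0.39 (adjusted p = 0.159). Without D2 Susceptible replicates 1 and 2 its difference was -0.14 (adjusted p = 0.963). Cox6a2 was at -2.63 (adjusted p = 0.159), and at -1.96 (adjusted p = 0.729) without them. DESeq2 called 1 member in this comparison (1.32% of all genes) and voom 0. A length term for each library called 15 (15.4% of all genes), of which 14 were higher in Susceptible and 1 lower. With it 14.7% of all genes were higher and 0.677% lower, and the median over all genes was 0.249 in place of -0.034. Leaving out D2 Susceptible replicate 3 gave 3, all lower (4.19% of all genes called). In D2 Susceptible against Resilient, 19 members were at an unadjusted p under 0.05, 14 higher and 5 lower, or 42.2% of 45, where 19.1% of all genes did. Cox6a2 was at -3.42 (SE 0.783, adjusted p = 0.0558), and at -2.74 (adjusted p = 0.523) without D2 Susceptible replicates 1 and 2. Atp5l, the membrane subunit g, was at 0.55 (SE 0.15, adjusted p = 0.0697), and at 0.08 (adjusted p = 1) without them. DESeq2 called 8 members (5.04% of all genes) and voom 0. A length term for each library called 25 (16.6% of all genes), of which 24 were higher in Susceptible and 1 lower. With it 15.8% of all genes were higher and 0.786% lower, and the median over all genes was 0.230 in place of -0.034. Leaving out D2 Susceptible replicate 3 gave 16 (9.93%), of which 11 were higher and 5 lower. Beside Cox6a2, the summed interneuron markers of the D2 line ran from 69.85 to 94.38 CPM in Susceptible, from 86.28 to 195.1 in Resilient and from 94.1 to 276.2 in Control libraries. At an unadjusted p under 0.05, 4 of 6 were lower in D2 Susceptible than in Control and 1 of 6 lower than in Resilient, and their part was not tested.

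Much of the D2 Susceptible spread lay in replicates 1 and 2. In both libraries 9 of the 45 members were below all the other 28 libraries: Sdha, Sdhb, Uqcrc1, Uqcrc2, Cox6b2, Cox7a1, Atp5a1, Atp5b and Atp5g1. In both, 8 were above all of them: Uqcr10, Uqcrh, Cox5a, Cox6c, Cox7c, Atp5e, Atp5k and Atp5l. The shares of all genes outside the other 28 libraries were not counted, so these counts are descriptions only. Cox6b2 and Cox7a1 were at 0 in both. For Cox6b2 the lowest value elsewhere was 0.06456 CPM, near the 0.0644 CPM that a 0 allows in replicate 1. Atp5b read 642 and 536 CPM there, 1536, 1166 and 1501 in the other D2 Susceptible libraries, and 924 to 1653 over the other 28. Atp5l read 289 and 317 CPM there and 115 to 196 over the other 28. Summed CPM of complex II was 769.2 and 816.7 in them and 888.8 to 1060 in the other 28, while complex III was at 1298 and 1398 against 909.3 to 1322. The slope of log2 deviation on transcript length was 0.137 and 0.106 in these 2 libraries. Without them 3 members had an unadjusted p under 0.05 in D2 Susceptible against Resilient, 6.67% of 45, where 5.45% of all genes did, and 6 in D2 Susceptible against Control, 13.3%, where 5.6% did.

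The D1 change minus D2 change was also read for Susceptible mice, and it likewise rearranges comparisons of D1 with D2 given above. Against Control, 2 members had an unadjusted p under 0.05, where 7.79% of all genes did. Against Resilient there were 20, of which 19 were negative, where 12.4% of all genes passed, or 44.4% of 45, led by Atp5k (-1.01, adjusted p = 0.192), Atp5l (-0.91) and Cox7c (-0.81). DESeq2 called 2 of them, where 0.243% of all genes were called, and without D2 Susceptible replicates 1 and 2 there were 9, or 20%, where 5.3% of all genes passed. Leaving out D2 Susceptible replicate 3 called 6, where 0.789% of all genes were called.

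Genes around the members were read from lists of partners. For D1 against D2 over all 3 conditions, 15.5% of all genes tested were lower in D1 and 13.8% higher. Single genes named from a list are a description beside those shares. Over all 3 conditions 7 of 14 citrate cycle genes were higher in D1 and 0 lower, with a median of 0.18. Among them were Idh3a, a subunit of isocitrate dehydrogenase (0.34), and Cs, citrate synthase. Of the cycle, Dld and Pdha1 were called in Control, while Cs, Ogdh, Idh3a and Idh3b were called in Susceptible only. The same held for Cyc1, Sdhaf3, Uqcc1, Fmc1 and Gabpb1, named below. Values without D2 Susceptible replicates 1 and 2 are not given for these lists. Among other subunits outside the symbol rule, Cyc1, cytochrome c1 of complex III, was higher in D1 (0.22), and Ndufa4 (-0.28) and mt-Cytb (-0.58) were lower, 3 of 9 in all. Of assembly factors, Sdhaf3 was higher (0.53) and Sdhaf1 lower (-0.33) of 4 for complex II. For complex III, Uqcc1 was higher and Uqcc2 and Uqcc3 lower of 6. For complex IV, Sco1, a copper chaperone, was higher (0.43) and Cox14 lower (-0.33) of 22 tested. For ATP synthase, Fmc1 was lower (-0.38) of 4. None of 7 carrier genes passed. Of 7 regulators, Gabpb1 was lower in D1 (-0.23). None of these lists had a called gene in any stress comparison. Complex I, read the same way, had 1 of 36 tested members higher and 19 lower in D1 over all 3 conditions, with a median of -0.17. Its symbol pattern also took in Ndufa4, given above among the other subunits, and Ndufa4l2.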

How the data were processed

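RNA bound to HA-tagged polyribosomes was immunoprecipitated and sequenced from SMART-Seq v4 libraries made with 10 ng of RNA, per the labels' protocols. The deposited counts are raw whole-number reads per gene. HISAT2, HTSeq and the GRCm38 (mm10) build are named in the submitters' processing notes. The annotation release and strandedness used for counting were not given in the sources used here, so reads of overlapping or antisense genes cannot be told apart. Symbols came from GENCODE M21 for 55154 of 55335 identifiers. HTSeq's 5 summary lines (10.1 to 53.3% of reads) were left out.

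Members and lists were chosen with earlier results of these data known. The genes given with full values were all of complex II, the highest and lowest member per complex, up to 4 called members per direction and complex, the 2 smallest p-values of each stress comparison, the isoform pairs of complex IV and the c-ring genes. The test was edgeR 4.0.16's robust quasi-likelihood test in R 4.3.3 on TMM-scaled counts, over all 30 libraries and 6 group means, with 24 residual degrees of freedom and 13 comparisons. Its filter (minimum count 10, minimum total 15) kept 19368 genes, and Benjamini-Hochberg adjustment at 0.05 ran over all of them. The biological coefficient of variation was 41.4%. CPM are on TMM-scaled library sizes. Alternatives used DESeq2 1.42.0, limma 3.58.1 and sva 3.50.0. The fit was tested on simulated data. Libraries are separate pools of mice, per the labels.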

Additional observations from a re-analysis of the deposited data

Results flagged for a closer look

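Of 210 groups of 5 libraries examined (the sums of the 4 complexes and the members given with full values that had at least 50 counts in every library), 21 had a library far from the other 4, where chance alone gives about 1 in 20. That rate holds for independent groups. Here members share libraries and the sums contain members, so the count of 21 is a description and no test. D1 Resilient replicate 5 was the highest in its group for the summed CPM of complex III (1215, others 1056 to 1088) and complex IV (3042, others 2336 to 2485). It was also highest for Sdhd (101.2 CPM, others 91.89 to 92.58), Uqcrh (221.7, others 164.8 to 178.1), Uqcr10 (123.2, others 101.7 to 106.6), Uqcrq (166.4, others 116.4 to 124.9) and Cox5b (305.5, others 244.1 to 259). The same library was highest for Cox6b1 (265.4, others 206.6 to 218), Cox7a2 (184.7, others 124.3 to 136.4) and Atp5f1 (471.4, others 366.6 to 393.9).

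D2 Control replicate 4 was highest for the complex IV sum (3507, others 2672 to 2831), Uqcr11 (119.8, others 83.24 to 92.96), Uqcrq (221.8, others 134.1 to 149.8) and Atp5g3 (695.5, others 525.9 to 553), and lowest for Sdhb (133.3, others 165.4 to 170.6). D2 Resilient replicate 1 was lowest for Uqcr10 (76.76, others 105.6 to 116.8), Atp5d (128.3, others 183.3 to 186.3) and Atp5g1 (86.64, others 113.4 to 123.1), and highest for Atp5f1 (451.6, others 388.5 to 404.2). D2 Control replicate 1 was lowest for Atp5k (69.56, others 94.87 to 101.4), and D1 Susceptible replicate 1 was lowest for Cox6c (187.8, others 234 to 250.3).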

How the results depend on the processing

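Counts of called members kept within 1.5 times of those reported in 283 alternatives and not in 27, and medians within 0.0884 in 291 and not in 19. A length term per library called 15 and 25 members for D2 Susceptible against Control and Resilient (15.4% and 16.6% of all genes). Of these, 14 and 24 were higher in Susceptible. That term also called 1 in D1 against D2 Control (5.07%). Its medians over members were 0.104 (D1 Susceptible against Control), -0.015 (D1 Susceptible against Resilient) and 0.440 and 0.514 (D2 Susceptible against Control and Resilient). Over all genes these were 0.047, 0.024, 0.249 and 0.230. In D1 against D2 the members' medians were -0.208 in Control and -0.474 in Susceptible, with 0.034 and -0.181 over all genes. For the differences of change they were -0.320, 0.217 and -0.509, with -0.203, 0.001 and -0.196 over all genes. With only the groups compared, 1 member was called in D1 Resilient against Control (0.0764% of all genes) and 3 for the Resilient difference of change (0.0644%). In D1 against D2 Resilient and Susceptible, 2 and 2 were called (12.7% and 5.48%). voom called 7 in D1 Resilient against Control (0.893%) and 2 in D1 Susceptible against Resilient (0.0774%). It called 3 in D1 against D2 Resilient (17.6%) and 9 for the Resilient difference of change (0.873%). Its medians were -0.101 (D2 Resilient against Control), -0.012 (D2 Susceptible against Resilient), 0.218 and -0.106 (differences of change). DESeq2 called 1 and 8 in those D2 comparisons of Susceptible mice (1.32% and 5.04%), and 2 for the Susceptible against Resilient difference of change (0.243%). Without D2 Susceptible replicates 1 and 2, D1 against D2 Susceptible had 7 called (10.4%), and medians were -0.142 (D2 Susceptible against Control) and 0.136 (its difference of change). With 4 libraries left out the counts were 5 for D1 against D2 Susceptible (10.6%) and 2 for D1 against D2 Resilient (12.5%), and medians -0.141, 0.165 and -0.141. Leaving out 1 library at a time gave ranges of 0 to 3 and 0 to 16 called (D2 Susceptible against Control and Resilient), 8 to 15 (D1 against D2 Control, median -0.345 to -0.219), 15 to 29 (Susceptible) and 0 to 6 (the Susceptible against Resilient difference). The counts of 3, 16, 29 and 6 came without D2 Susceptible replicate 3, beside 4.19%, 9.93%, 31.4% and 0.789% of all genes. The count of 8 came without D2 Control replicate 4, beside 5.34%. The cause of these changes was not tested. Replicate numbers did not pair the libraries: 0 of 75 same-numbered pairs had a correlation over 0.1 (-0.143 to 0.0682). With a replicate block 14 members were called in D1 against D2 Control (7.73% of all genes) and 25 over all 3 conditions (27.5%). In each stress comparison 0 were called (0 to 0.0516%). Added after the data were seen, lengths of all annotated exons gave 145.4 for Sdha, 152.2 for Uqcrh, 1.514 for Uqcrc1, 449.6 for Cox4i1, 337.2 for Atp5b and 4.061 for Atp5s in CPM per kilobase. Depth limits Cox4i2, Cox6a2, Cox6b2, Cox7a1 and Cox7b2, at a few CPM or less.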
